A study of Mus musculus with 5 samples.

Results

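The genes described here encode the enzymes that make and break down the endocannabinoid 2-arachidonoylglycerol (2-AG) in mouse hippocampus. They are 5 of the 32285 genes counted, chosen by name: Dagla and Daglb, which encode the diacylglycerol lipases, and Mgll, Abhd6 and Abhd12, which encode the hydrolases. All 5 were found in every library. The chromatin regions that lie over them were added from the same nuclei. The study profiled hippocampal nuclei with paired RNA and chromatin libraries, and each of its 5 groups is 1 library. WT is the wild type, and 5xFAD is an Alzheimer model that carries mutant human transgenes driven by the neuronal Thy1 promoter. The other 3 libraries are labelled 5xFAD with an astrocyte specific, a neuron specific or a global MAGL-KO, where MAGL is the protein of Mgll, and are called astrocyte-KO, neuron-KO and global-KO below. They thus share the 5xFAD background with their comparison library. The labels name no Cre driver, deleted part of Mgll, age or number of animals, and the libraries hold nuclei of both sexes. With 1 library per group there is no replicate check between genotypes, and intervals on such differences cover counting error only. Values are listed in the order WT, 5xFAD, astrocyte-KO, neuron-KO and global-KO unless stated.

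2-AG is a lipid messenger that runs backwards across synapses. Diacylglycerol, released by phospholipase C downstream of receptors such as Grm5, is cut by a diacylglycerol lipase in the dendrite, and the product diffuses to the cannabinoid receptor CB1 (Cnr1) on the presynaptic terminal, where it dampens transmitter release. MAGL, found in terminals and in astrocytes, ends the signal by splitting 2-AG into glycerol and arachidonic acid, from which cyclooxygenases make prostaglandins. ABHD6 acts on the postsynaptic side, and ABHD12 also hydrolyses lysophosphatidylserine, a lipid that acts on immune cells.

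The libraries held 4050 to 7498 barcodes and 101931020 to 159532813 UMIs (unique molecular identifiers, each counted as 1 RNA molecule), with medians of 14069 to 17354 UMIs per nucleus. After filtering, 3917 to 7032 nuclei per library were clustered without the 5 enzymes, and clusters were named from marker genes. Of the named classes, 16 are compared here, and "every other class" below means these. Vascular, choroid plexus and Cajal-Retzius nuclei, at most 21 per library and class, were named too but are not read. All markers of each named hippocampal class were detected in its own nuclei in every library. Between 12.3% and 14.9% of nuclei stayed unnamed, among them clusters in which many nuclei held Xist together with Y-linked RNA (7.26% to 10.8% of nuclei), as mixed droplets do. Of the nuclei that held Xist or Y-linked UMIs but not both, 58.0%, 41.3%, 58.3%, 82.0% and 58.0% held Xist, so the neuron-KO library leans to female nuclei. Library pairs shared 29 to 63 cell barcodes. Astrocytes were few, with 70, 46, 47, 28 and 32 nuclei.

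Mgll lies on chr6:88724412-88828360 (plus strand, 103.9 kb) and Dagla on chr19:10245265-10304877 (minus strand, 59.6 kb), in the GRCm38 build. Daglb lies on chr5:143464584-143505942 (plus strand, 41.4 kb), Abhd6 on chr14:8002902-8056763 (plus strand, 53.9 kb) and Abhd12 on chr2:150832493-150904741 (minus strand, 72.2 kb). Mgll overlaps the antisense gene Gm26588, Dagla overlaps the antisense AC132148.1 and Daglb overlaps Rac1 on the other strand. No label or header says whether counting used strand, so reads from these overlaps cannot be told apart. The 250 bases before the RefSeq start of Mgll and Daglb are shown (GRCm38.p6, 5′ to 3′, both plus strand). They were picked because these genes peaked in different glia, Mgll in astrocytes and Daglb in microglia. Capitals mark the motif match in each.

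Mgll, chr6:88724162-88724411: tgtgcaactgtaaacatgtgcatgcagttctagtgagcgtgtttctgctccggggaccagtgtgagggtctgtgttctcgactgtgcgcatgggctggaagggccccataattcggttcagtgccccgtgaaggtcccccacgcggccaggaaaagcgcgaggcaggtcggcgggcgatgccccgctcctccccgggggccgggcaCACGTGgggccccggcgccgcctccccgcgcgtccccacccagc
Daglb, chr5:143464243-143464492: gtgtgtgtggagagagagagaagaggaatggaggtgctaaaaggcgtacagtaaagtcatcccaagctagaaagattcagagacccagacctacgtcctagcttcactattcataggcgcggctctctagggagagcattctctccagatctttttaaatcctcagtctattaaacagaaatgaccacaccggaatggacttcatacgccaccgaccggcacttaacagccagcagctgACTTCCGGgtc

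In the 300 bases from 250 before to 50 after the start, the Mgll promoter was 70.0% G or C and that of Daglb 51.0%, against a median of 52.7% over 32851 promoters. The table holds a second start for Mgll and for Abhd6, and the motifs given are those of the first. Searched on both strands, Mgll held CACGTG 44 bases before its start, a motif in 7.15% of all promoters. Daglb held CCGGAAGT, on the minus strand, 11 bases before its start, a motif in 3.89% of promoters. Abhd6 held CCAAT 221 bases before its start, as 37.4% of promoters do somewhere. The windows of the second starts held neither CACGTG nor CCAAT. Neither Mgll, Daglb nor Abhd6 held TATAAA, found in 13.6% of promoters. GGGCGG, found in 35.7%, was held by Mgll and Abhd6. The promoters of Dagla and Abhd12 were not in the table used. These are matches of letters only.

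Mgll, the gene targeted in the 3 knockout-labelled libraries, was detected in all of them. Over all nuclei it stood at 74.3, 77.7, 92.5, 92.6 and 80.4 counts-per-million of summed UMIs (CPM). The 3 knockout-labelled values were all above those of WT and 5xFAD. Their log2 ratios to 5xFAD, 0.25, 0.25 and 0.05, were close to the medians of all genes in the same comparisons, 0.21, 0.19 and 0.02. In astrocytes Mgll was at 493, 346, 483, 403 and 430.2 CPM, so the astrocyte-KO and global-KO libraries were within the span of the other libraries. In all excitatory neurons it was at 70.5, 72.2, 87.7, 90.8 and 78.1 CPM, with the neuron-KO library the highest. Because UMIs were summed over the whole gene and the labels do not say which part of Mgll is removed, these values do not check the labels, and each library is named by its label only.

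Across cell classes, Mgll was highest in astrocytes, at 431 ± 60.2 CPM (SD, n = 5 libraries; 449 UMIs in all). The SD here and below is the spread over 5 libraries of different genotype. Next came a class of inhibitory neurons that the markers did not place in the Lhx6/Sst or Adarb2/Vip group, led by Gad2 and Dlx6os1. It was at 212 ± 25.5 CPM, with 191, 241, 237, 187 and 205 CPM by library. Its nuclei are not shown to be a separate type. Astrocytes did not overlap that class in any library. Microglia had 166 ± 91.7 CPM, set largely by the WT library at 326 CPM against 100.2 to 154 CPM in the others (135 UMIs in all). Oligodendrocyte precursors were at 145 ± 25.8 CPM.

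Within the hippocampal circuit Mgll separated neighbouring fields. CA3 pyramidal neurons had 99.99, 122, 119.9, 126 and 123 CPM, dentate granule neurons 86.4, 83.3, 112, 116 and 106 CPM, and CA1 pyramidal neurons 38.7, 42.8, 58.2, 60.0 and 50.2 CPM. CA1 was below the lowest CA3 and dentate values in every library, while CA3 and dentate overlapped across libraries. The subiculum, the output field next to CA1, was at 69.01 ± 15.0 CPM and CA2 at 76.4 ± 13.03 CPM. Hilar mossy cells, with 19 to 43 nuclei per library, were the lowest neurons at 27.9 ± 10.3 CPM (n = 4, leaving out the neuron-KO library with 19 nuclei). Neighbours in this order, such as CA2, Lhx6/Sst interneurons (74.0 ± 10.1 CPM) and subiculum, did not differ beyond their spread.

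Oligodendrocytes, the cells that make myelin, had 16.6, 25.004, 58.6, 41.5 and 36.5 CPM of Mgll (137 UMIs in all), the lowest of the glia. Each of their library values was below every value of their precursors (126 to 188 CPM).

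**Figure D1:**
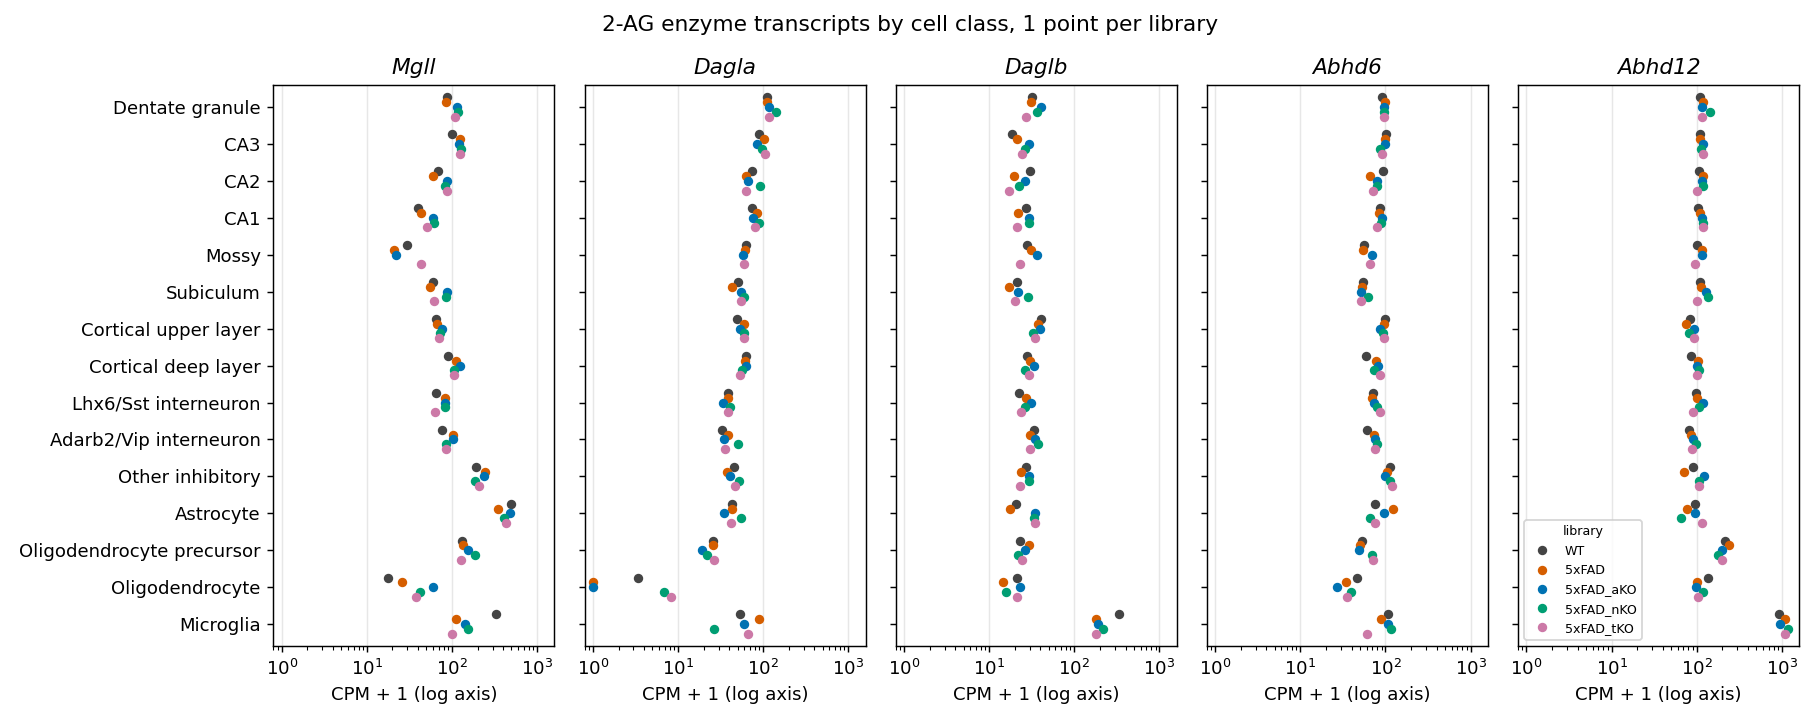
Level of each of the 5 enzyme genes (CPM of summed UMIs, log axis) in each named cell class, with 1 point per library. Mgll is highest in astrocytes, Abhd12 and Daglb in microglia, and Dagla in dentate granule and CA3 neurons with almost no UMIs in oligodendrocytes.

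Dagla, the lipase that makes most synaptic 2-AG in adult brain, was a gene of excitatory neurons here. Dentate granule neurons had 109.6, 110.5, 117, 142 and 116 CPM, CA3 89.5, 102, 83.2, 97.1 and 104 CPM, and CA1 73.6, 83.7, 75.5, 87.3 and 79.6 CPM. The dentate values lay above all CA3 and CA1 values. Subiculum had 51.4 ± 6.11 CPM, Adarb2/Vip interneurons 37.5 ± 6.83 CPM and Lhx6/Sst interneurons 37.1 ± 2.67 CPM, with every interneuron library below every CA1 library. The order of those 2 interneuron groups is not settled, as described with the tests below. Astrocytes were at 42.4 ± 7.30 CPM on only 44 UMIs, and microglia at 58.0 ± 22.4 CPM on 56 UMIs, so both levels are loosely set. Oligodendrocytes held 11 Dagla UMIs in all, with no UMI in the 5xFAD and astrocyte-KO libraries, where a count of 0 allows up to 3.13 and 4.09 CPM (3 counts).

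Daglb, the lipase prominent in macrophages and microglia, was at 336, 180, 189, 218 and 180 CPM in microglia (189 UMIs). In every other class its mean was between 18.1 CPM in oligodendrocytes and 36.1 CPM in upper-layer cortical neurons. Microglia were thus far above all other classes in each library, with the WT library the highest. Among neurons Daglb was at 32.2 ± 5.40 CPM in dentate granule neurons, 24.6 ± 3.90 CPM in CA1 and 22.9 ± 4.22 CPM in CA3, and these ranges overlapped.

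Of all lipase UMIs (Dagla plus Daglb), Dagla made up 80.5% ± 3.7 in CA3, 78.7% ± 2.7 in dentate granule neurons and 76.5% ± 3.3 in CA1 (SD, n = 5). Its share was 71.5% ± 2.2 in subiculum, 59.9% ± 4.6 in Lhx6/Sst interneurons, 53.5% ± 3.5 in Adarb2/Vip interneurons, 48.8% ± 4.5 in precursors, 61.6% ± 8.9 in astrocytes, 21.4% ± 9.2 in microglia and 12.99% ± 13.7 in oligodendrocytes, the last on 11 Dagla UMIs. Most lipase UMIs were thus Dagla in pyramidal and granule neurons, and Daglb in microglia and oligodendrocytes. UMI counts also depend on gene length and priming sites, so these shares are compared between classes and not read as the ratio of the enzymes.

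Abhd6 had the flattest profile of the 5. In dentate granule neurons it was at 90.7, 98.3, 96.3, 95.4 and 95.6 CPM, in CA3 at 94.1 ± 6.27 CPM and in CA1 at 84.6 ± 3.81 CPM. The unplaced inhibitory class had 109 ± 8.36 CPM and microglia 94.9 ± 21.9 CPM, overlapping the dentate values. Subiculum (53.9 ± 4.49 CPM) and oligodendrocytes (45.2, 33.3, 25.9, 38.0 and 34.6 CPM) were lower, each below all CA1 libraries.

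Abhd12 was a microglial gene, at 925, 1079, 941, 1180 and 1082 CPM (961 UMIs), with a lowest microglial library that was several times the highest value of any other class. Oligodendrocyte precursors followed at 205 ± 22.2 CPM. Neurons of the dentate gyrus (119 ± 13.04 CPM), subiculum (117 ± 13.4 CPM), CA3 (113 ± 4.51 CPM) and CA1 (112 ± 6.15 CPM) and oligodendrocytes (109.9 ± 15.2 CPM) could not be ordered within their spread.

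Among hydrolase UMIs (Mgll, Abhd6 and Abhd12), Mgll made up 71.1% ± 4.7 in astrocytes, from 63.8% to 75.8% by library. The share was 50.6% ± 4.8 in the unplaced inhibitory class, 36.3% ± 2.4 in CA3, 31.9% ± 2.8 in dentate granule neurons, 20.1% ± 2.5 in CA1, 19.8% ± 8.7 in oligodendrocytes and 12.7% ± 6.5 in microglia. The astrocyte share did not overlap that of any class just named. In microglia most hydrolase UMIs were Abhd12.

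The class differences were tested with edgeR's quasi-likelihood test on UMI sums per library and class, with the library as a block, so that classes were compared within libraries. The 5 libraries, though of different genotype, act as the replicates, and p-values were adjusted by Benjamini-Hochberg over 16339 genes. Over 10 contrasts of classes, 38 of the 50 enzyme tests passed an adjusted p of 0.05, 20 higher and 18 lower. In these contrasts 30.9% to 61.7% of all genes passed. Many genes differ between cell classes, and the share of all genes that passed is therefore given beside each count.

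CA1 against dentate granule neurons gave 3 enzymes lower and none higher, where 54.5% of all genes passed. Mgll was lower by a log2 fold change of -0.97 (SE 0.095, edgeR adjusted p = 5.26e-15), Dagla by -0.52 (edgeR adjusted p = 4.88e-11) and Daglb by -0.34 (edgeR adjusted p = 1.95e-05). For Abhd6 the log2 fold change was -0.12 (edgeR adjusted p = 0.0985) and for Abhd12 -0.03 (edgeR adjusted p = 0.716). CA3 against CA1 gave Mgll, Dagla and Abhd6 higher, with 37.3% of genes passing. The Mgll difference there was the widest of the neuronal contrasts for this gene, a log2 fold change of 1.29 (SE 0.098, edgeR adjusted p = 1.16e-19), against 0.29 for Dagla (edgeR adjusted p = 0.000232) and 0.19 for Abhd6 (edgeR adjusted p = 0.0161). The Abhd6 call was lost without the 5xFAD library (edgeR adjusted p = 0.0544) and with each nucleus given to its highest marker score (0.0662).

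CA3 against dentate granule neurons moved the enzymes in both directions, where 54.7% of genes passed. Mgll was higher by 0.32 (edgeR adjusted p = 0.00211), while Dagla was lower by a log2 fold change of -0.23 (edgeR adjusted p = 0.00253) and Daglb by -0.39 (edgeR adjusted p = 8.19e-06). The Mgll difference depended on how nuclei were assigned: with each nucleus given to its highest marker score it was 0.11 (edgeR adjusted p = 0.336). In subiculum against CA1 (40.5% of genes passing), Mgll was higher by 0.36 (edgeR adjusted p = 0.00488), while Dagla (-0.74, edgeR adjusted p = 1.45e-13), Abhd6 (-0.76, edgeR adjusted p = 1.59e-14) and Daglb (-0.36, edgeR adjusted p = 0.000738) were lower. The subicular field thus paired more Mgll with less of both lipases. With no doublet removal the Mgll difference was 0.19 (edgeR adjusted p = 0.134), and with marker scores that of Daglb was 0.022.

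Interneurons of the Lhx6/Sst group, which include somatostatin and parvalbumin cells, were lower than dentate granule neurons for all 5 enzymes, where 30.6% of all genes passed as lower and 61.7% in either direction. The Dagla log2 fold change was -1.81 (SE 0.082, edgeR adjusted p = 4.97e-33), that of Mgll -0.58 (edgeR adjusted p = 1.40e-06), and Daglb, Abhd6 and Abhd12 lay between -0.48 and -0.36. Adarb2/Vip interneurons, the group that holds the Cnr1-rich Cck cells, had more Daglb (0.43, edgeR adjusted p = 0.000366) and more Mgll (0.35, edgeR adjusted p = 0.0123) than the Lhx6/Sst group, with 30.9% of genes passing. The Mgll call there was lost without the astrocyte-KO library (edgeR adjusted p = 0.0701) or the global-KO library (0.0660), and with marker scores the difference was 0.039. Dagla did not pass between these groups (0.08, edgeR adjusted p = 0.612). It was lower in Adarb2/Vip interneurons without nuclei holding both Xist and Y-linked UMIs (-0.47, edgeR adjusted p = 0.00193) and with marker scores (-0.34, edgeR adjusted p = 0.00254). Such nuclei were 21.95% to 26.5% of the Adarb2/Vip group by library and 2.59% to 6.92% of the Lhx6/Sst group, and their part in the Dagla value was not tested. Cnr1 itself, which encodes CB1, was at 756 to 997 CPM in Adarb2/Vip interneurons and at 5.79 to 8.23 CPM in dentate granule neurons.

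Astrocytes against dentate granule neurons gave Mgll higher and the other 4 lower, where 48.9% of genes passed. Mgll had a log2 fold change of 1.51 (SE 0.139, edgeR adjusted p = 4.13e-16), against 2.10 ± 0.26 (SD, n = 5) as the mean log2 ratio of plain CPM within a library. Dagla had -2.08 (SE 0.184, edgeR adjusted p = 7.41e-17) and -1.50 on plain CPM. For Abhd12, Daglb and Abhd6 the edgeR values were -1.05, -0.96 and -0.73, but on plain CPM -0.45, -0.30 and -0.19, each lower in 4 of 5 libraries. The Daglb call was not made by DESeq2 (-0.64, adjusted p = 0.0556). The scale matters in this contrast, since the median of all genes was -0.29 with edgeR and 0.18 with DESeq2, and the share of calls that were higher was 40.6% and 60.1%. All 5 enzymes kept their directions with edgeR, DESeq2 and plain CPM.

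Among glia, astrocytes exceeded oligodendrocytes in Mgll by a log2 fold change of 3.41 (SE 0.200, edgeR adjusted p = 4.46e-26) and in Abhd6 by 1.05 (edgeR adjusted p = 1.50e-05), where 36.7% of genes passed. Abhd12 was lower in astrocytes (-0.57, edgeR adjusted p = 0.00363), a call that DESeq2 did not make (-0.33, adjusted p = 0.138) and whose sign turned with marker scores (0.042, edgeR adjusted p = 0.779). The higher share of calls in this contrast was 50.1% with edgeR and 65.8% with DESeq2. Precursors exceeded oligodendrocytes in Mgll by 2.16 (edgeR adjusted p = 2.36e-15), Abhd12 by 0.96 (edgeR adjusted p = 8.81e-13) and Abhd6 by 0.77 (edgeR adjusted p = 0.000114), and Daglb at 0.48 did not pass (edgeR adjusted p = 0.104). Here 4 of 5 enzymes were higher, against 24.8% of all genes higher and 42.4% called in either direction. Dagla passed in both contrasts, at 3.69 for astrocytes and 3.09 for precursors with edgeR, against 3.78 and 2.88 as log2 ratios of the mean plain CPM, but both rest on the 11 oligodendrocyte UMIs.

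All 5 enzymes were higher in microglia than in oligodendrocytes, where 18.4% of all genes were higher and 42.9% passed. The log2 fold changes were 2.61 for Abhd12 (SE 0.097, edgeR adjusted p = 2.22e-38), 2.92 for Daglb (SE 0.182, edgeR adjusted p = 1.46e-24), 1.45 for Mgll (SE 0.268, edgeR adjusted p = 3.52e-06) and 0.76 for Abhd6 (edgeR adjusted p = 0.00144). Dagla was at 3.82 (edgeR adjusted p = 9.02e-14), again against the 11 oligodendrocyte UMIs with 0 in 2 libraries. As log2 ratios of the mean plain CPM these differences were larger, at 3.24 for Abhd12, 3.61 for Daglb, 2.22 for Mgll, 1.42 for Abhd6 and 4.23 for Dagla. The Abhd6 call was lost without the astrocyte-KO library (edgeR adjusted p = 0.0624), and without the microglial cluster that WT lacks, described below (0.51, edgeR adjusted p = 0.220). Calls in this contrast were 42.9% higher with edgeR and 54.2% with DESeq2.

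**Figure D2:**
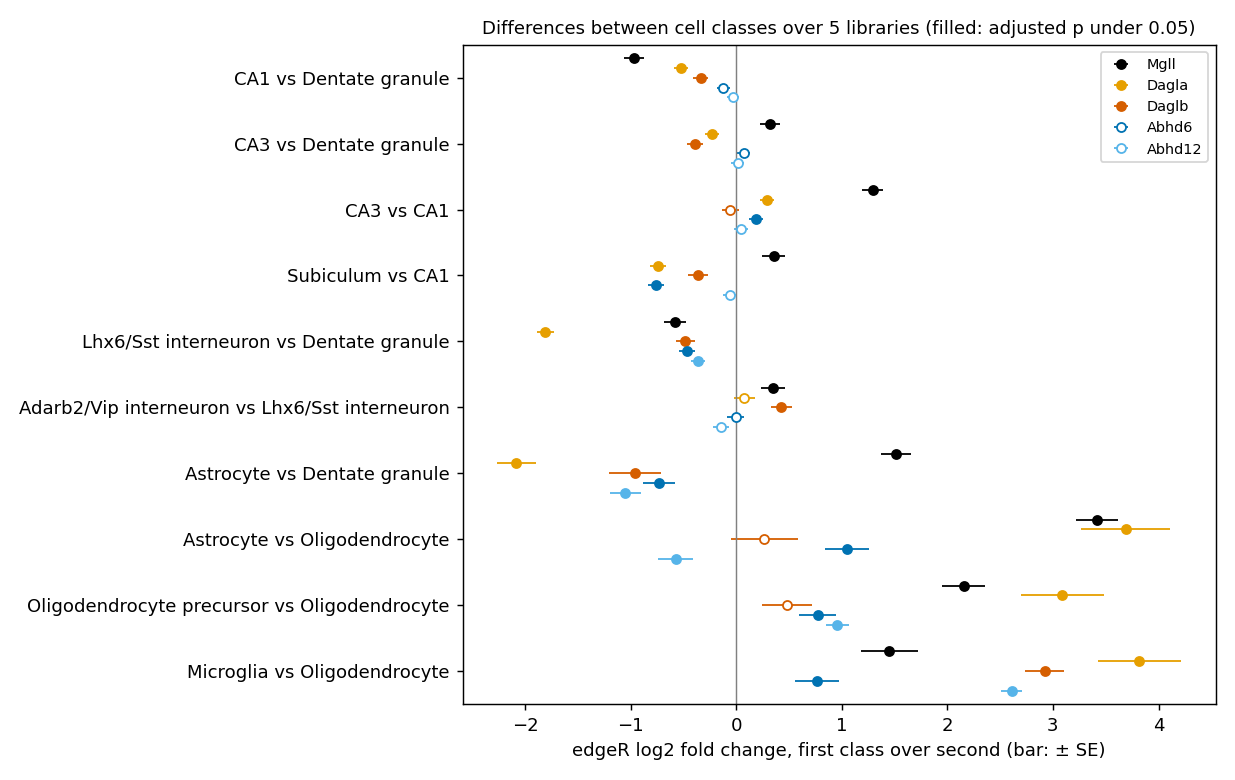
Log2 fold change (points) with its standard error (bars) of each enzyme gene in the 10 contrasts of cell classes, from edgeR on UMI sums with the library as a block. Filled points passed an adjusted p of 0.05 over all genes, and the widest values are those against oligodendrocytes and of Dagla in interneurons and astrocytes.

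The markers of other cell types bear on the glial values for the genes with few UMIs. The 6 excitatory markers summed to 19.2 to 63.0 CPM in Microglia and 24.8 to 61.6 CPM in Astrocyte nuclei, against 976 to 1064 CPM in Dentate granule neurons. From 2 to 4 of the 6 were detected in a library's microglia and 2 to 5 in its astrocytes, and Tbr1 was at 0 in all astrocyte sums and in microglia of 4 libraries. The part of neuronal RNA in the Dagla values of glia was not tested.

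Microglia fell into 2 clusters, made without the enzymes and looked at after the values above were seen. The first was led by Ctss, C1qa, Trem2 and Ctsd, with Apoe, a lipid carrier, at 7457 CPM and the resting-state receptor P2ry12 at 634 CPM. It held 0, 56, 77, 39 and 51 nuclei, none from WT. The second was led by Selplg, Csf1r and Siglech beside Ctss, with Apoe at 726 CPM and P2ry12 at 1660 CPM, and held 43, 29, 45, 13 and 44 nuclei. Every microglial comparison between WT and the other libraries therefore compares different mixtures of these clusters.

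Abhd12 was higher in the Apoe-rich cluster in each of the 4 libraries that held it. It stood at 1263 CPM (95% exact Poisson interval 1091 to 1455) against 640.1 CPM (459 to 868) in the 5xFAD library, and at 1093 CPM (938 to 1266) against 674 CPM (517 to 864) in the astrocyte-KO library. In the global-KO library it was at 1301 CPM (1096 to 1532) against 814 CPM (638 to 1024). In the neuron-KO library, at 1272 CPM (1077 to 1493) against 892 CPM (618 to 1247), the intervals overlapped. The WT nuclei, all in the second cluster, had 925 CPM (742 to 1139), above the second-cluster value of the other 4 libraries, but its interval overlapped each of theirs.

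For Mgll and Daglb the libraries did not share a direction. Mgll was at 72.004, 117, 144 and 136 CPM in the Apoe-rich cluster of the 5xFAD, astrocyte-KO, neuron-KO and global-KO libraries, against 203, 185, 184 and 55.8 CPM in their second cluster. Daglb was at 196, 185, 170 and 118 CPM against 141, 196, 367 and 257 CPM. Pooled over these 4 libraries Mgll was at 114 CPM (87.6 to 146) and 148 CPM (107 to 200.1), and Daglb at 171 CPM (138 to 210.0) and 226 CPM (174 to 288), with overlapping intervals for both genes. With WT at 326 CPM, the second-cluster Mgll values rest on 31, 13, 17, 7 and 5 UMIs. These counts are few, and apart from the WT and global-KO libraries their intervals overlapped.

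Chromatin was read as transposase cut sites in peaks that had been called in each library separately. Over the 5 genes and the 2 kb before their starts the peak lists merged into 75 regions, of which 45 were listed in all 5 libraries. Mgll had 22 regions (12 in all libraries), Dagla 12 (11), Daglb 11 (6), Abhd6 15 (8) and Abhd12 15 (8). Values are CPM, here of the cut sites in all peaks of the class, averaged over the libraries that list the region, and are descriptions with no test. The classes read were dentate granule, CA1 and CA3 neurons, Lhx6/Sst and Adarb2/Vip interneurons, the unplaced inhibitory class, astrocytes, oligodendrocytes, precursors and microglia.

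At Mgll the start site was open in every class read, from 19.2 CPM in oligodendrocytes to 36.3 in dentate granule neurons, 49.2 in astrocytes and 62.5 in precursors. An intronic region 2.4 kb past the start (chr6:88726311-88727382) differed far more between neurons and glia. It had 68.9 CPM in precursors, 57.2 in astrocytes and 24.1 in oligodendrocytes, but 5.61 in dentate granule neurons and 1.64 in CA1. In astrocytes the libraries that list it had 59.8, 68.3, 68.1 and 32.6 CPM, the lowest in neuron-KO on 13 cut sites. The global-KO library does not list this region. That library also had the smallest share of astrocytes (0.455% of its nuclei, against 0.715% to 1.40%) and of oligodendrocytes (3.06%, against 5.21% to 6.69%), and the part this plays in a peak call made on all nuclei was not tested.

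A second Mgll intron region, 12.5 kb past the start (chr6:88736416-88737325), was highest in dentate granule neurons. In dentate granule neurons it had 30.9, 32.7, 28.1, 30.2 and 26.1 CPM, against means of 22.8 in CA3, 13.9 in CA1, 3.27 in Lhx6/Sst interneurons and 0.49 in oligodendrocytes. Astrocytes, with the most Mgll RNA, had 11.04. CA1 was the lowest of the 3 fields here as for Mgll RNA. Dentate granule neurons were above CA3 here, while their Mgll RNA overlapped across libraries and its higher call in CA3 was lost with marker scores. Near the end of Mgll, chr6:88811087-88812036 and chr6:88827330-88828220 had 47.5 and 42.1 CPM in microglia and at most 17.1 and 12.3 in any other class read.

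**Figure D3:**
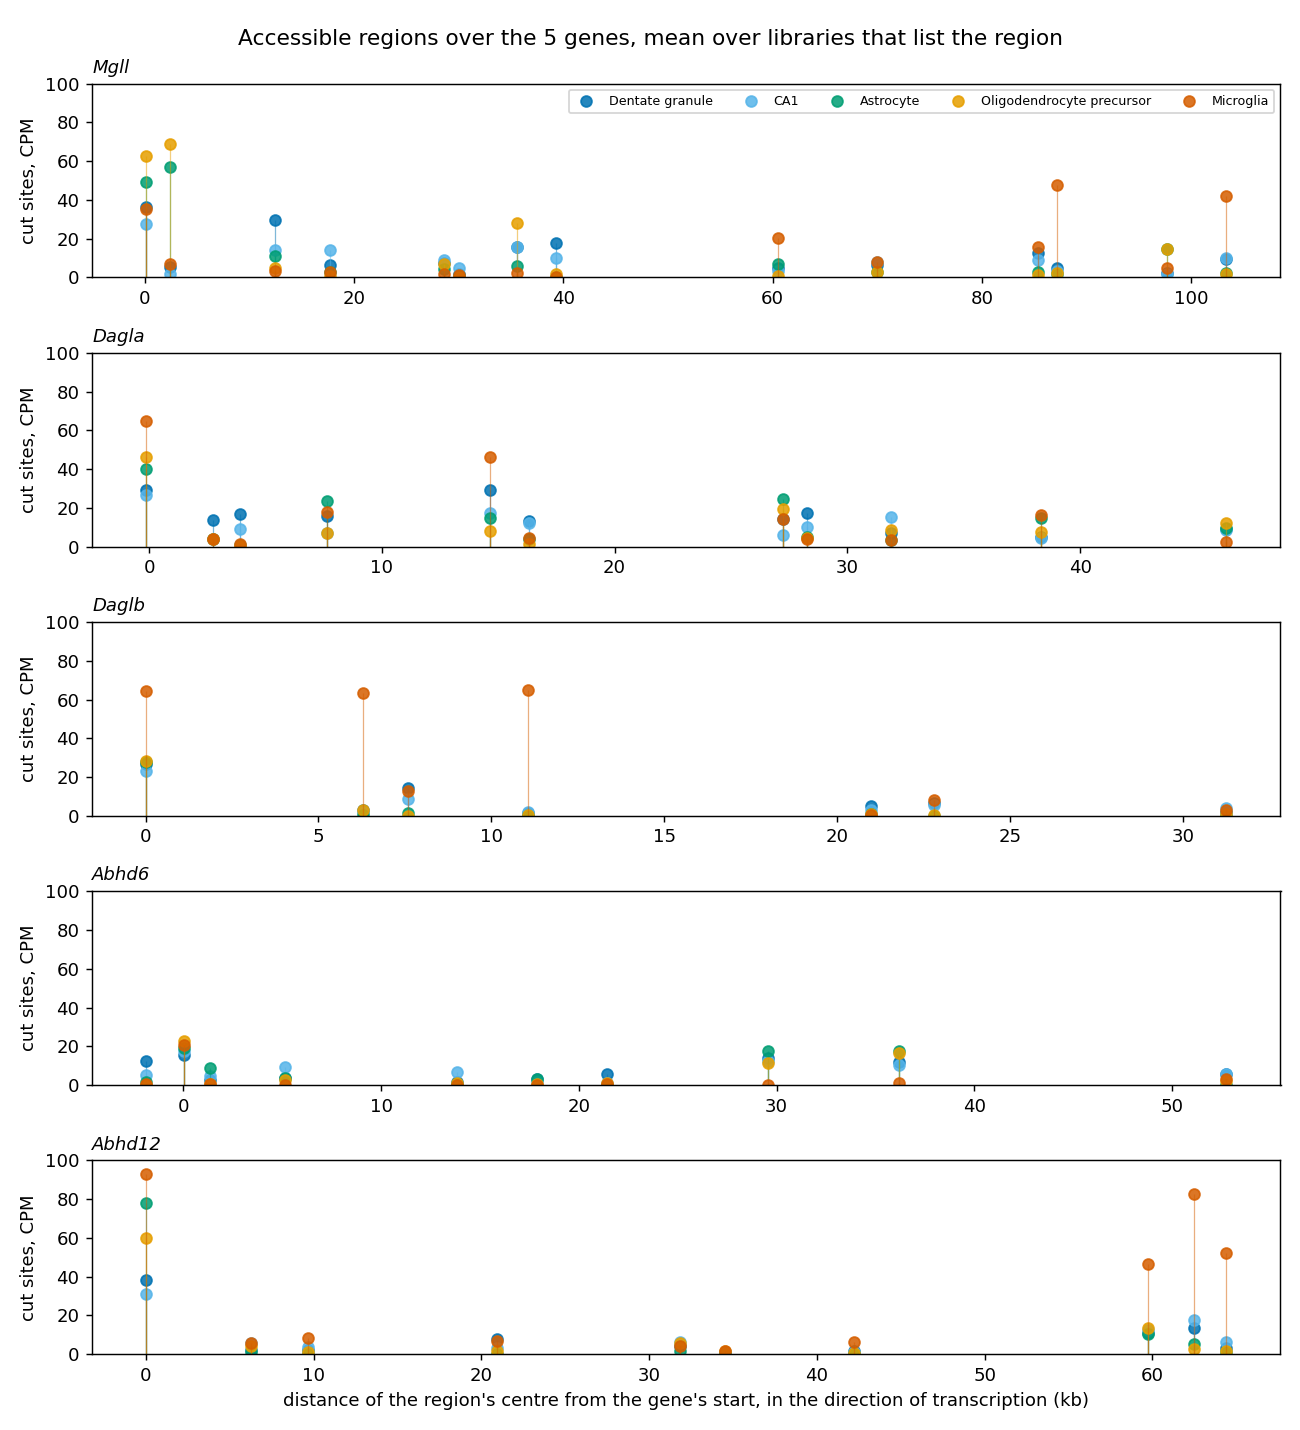
Cut sites (CPM, mean over the libraries that list each region) over the regions of the 5 genes in neuronal and glial classes, placed by distance from the gene's start. The Mgll intron 2.4 kb from the start is high in astrocytes and precursors, and regions of Daglb and Abhd12 are high in microglia.

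Daglb carried 2 intragenic regions that were almost confined to microglia among the classes read. The region 6.3 kb past its start (chr5:143470469-143471288) had 69.4, 66.3, 49.3, 60.5 and 71.6 CPM in microglia and at most 4.15 as the mean of any other class read. The region 11.1 kb past the start (chr5:143475180-143476135), which overlaps an exon, had 42.7, 48.5, 84.6, 68.3 and 79.7 CPM in microglia and a mean of 1.32 in dentate granule neurons and 6.80 in Lhx6/Sst interneurons, the highest of the others. The Daglb start site was open in all classes read, at 64.5 CPM in microglia and 22.7 to 41.2 in the others.

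Abhd12 also had regions within the gene that were higher in microglia, though less confined to them than those of Daglb. The region 64.4 kb past its start (chr2:150839859-150840778) averaged 52.0 CPM in microglia and at most 12.02 in any other class read. The region 62.5 kb past its start (chr2:150841767-150842704), at the start of another annotated transcript, had 58.7, 86.7, 81.0, 74.2 and 114 CPM in microglia and a mean of 17.9 in CA1. At the main start site microglia had 93.2 CPM, oligodendrocytes 85.1 and astrocytes 78.1, against 38.5 in dentate granule neurons. Abhd12 RNA was lower in astrocytes than in those neurons in 4 of 5 libraries. For oligodendrocytes and those neurons it could not be ordered within the spread.

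Dagla had an intronic region 14.6 kb past its start (chr19:10289812-10290672) with 46.1 CPM in microglia, 29.4 in dentate granule neurons, 17.6 in CA1 and 0.66 in oligodendrocytes. Oligodendrocytes, the lowest of these, also had the fewest Dagla UMIs. Microglia, the highest, had less Dagla RNA than dentate granule neurons (58.0 against 119 CPM). Abhd6, whose RNA varied least, had 15.6 to 25.9 CPM at its start site over the classes read.

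The genotypes were compared library by library. A gene was counted as past the threshold when its log2 ratio was beyond 0.32 in either direction, among genes with at least 100 UMIs over both libraries. Comparisons of the knockout-labelled libraries all use the same 5xFAD library. In all excitatory neurons no enzyme passed between 5xFAD and WT, where 9.78% of genes did, and none between global-KO and 5xFAD, where 14.7% did. The astrocyte-KO comparison had 1 enzyme past the threshold (40.4% of genes) and the neuron-KO comparison 1 (38.9% of genes). In those 2 comparisons the median of all genes was itself shifted by 0.22 and 0.19 on the log2 scale, and with median-of-ratios size factors no enzyme passed in any of the 4. None passed either without the dentate cluster described next (Mgll 0.29 for neuron-KO, Daglb 0.31 for astrocyte-KO). The shares of all genes past the threshold were not computed under either alternative, here or below.

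The dentate granule class is held unevenly by the libraries. One of its clusters, led by genes such as Acvr1c, Pappa, Glis3 and Bdnf, had 5, 10, 297, 256 and 567 nuclei, which were 0.315%, 0.747%, 18.7%, 23.3% and 29.8% of the class. Comparisons of knockout-labelled libraries with 5xFAD in dentate granule or all excitatory neurons therefore set different mixtures of clusters against each other, and values without this cluster are given where they bear on a result, as an alternative chosen after seeing the data.

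Mgll in all excitatory neurons differed from 5xFAD by 0.28 (95% interval 0.23 to 0.34) in the astrocyte-KO library, 0.33 (0.27 to 0.39) in the neuron-KO library and 0.11 (0.06 to 0.17) in the global-KO library, on the log2 scale. Between 5xFAD and WT it differed by 0.03 (-0.02 to 0.09). Of all genes compared, 57.4%, 65.9% and 66.6% had a lower ratio than Mgll in the 3 knockout-labelled comparisons, so Mgll was not far from the middle. In dentate granule neurons the Mgll differences were 0.43 (0.33 to 0.52), 0.48 (0.39 to 0.58) and 0.35 (0.26 to 0.44), all past the threshold, with 35.5%, 32.9% and 17.1% of genes past it and medians of 0.18, 0.13 and 0.04. Without the unevenly held cluster they were 0.45 (0.35 to 0.54), 0.46 (0.36 to 0.56) and 0.39 (0.29 to 0.48). With median-of-ratios size factors they were 0.23, 0.3198 and 0.31, none past the threshold.

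In CA1 the Mgll differences were 0.44 (0.28 to 0.61) and 0.49 (0.32 to 0.66), both past the threshold, and 0.23 (0.08 to 0.39) for global-KO, within it, where 34.3%, 34.5% and 15.5% of genes passed and the medians were 0.17, 0.15 and 0.05. With median-of-ratios size factors the Mgll differences were 0.24, 0.29 and 0.18, none past the threshold. Between 5xFAD and WT, CA1 differed by 0.14 (-0.03 to 0.32) and dentate granule neurons by -0.05 (-0.15 to 0.04), both within the threshold, which 14% and 8.94% of genes passed. In CA1 nuclei thinned to 1000 UMIs the astrocyte-KO and neuron-KO differences were -0.019 (-0.72 to 0.69) and -0.41 (-1.30 to 0.43), on 38 and 19 UMIs against 35. These intervals span 0 and overlap those of all UMIs, and the cause of the lower values was not tested. In CA3 they were -0.03 (-0.18 to 0.12), 0.04 (-0.11 to 0.19) and 0.00 (-0.13 to 0.14). There the 5xFAD library was above WT by 0.29 (0.14 to 0.44). In all inhibitory neurons Mgll was at 100.3, 118, 120.0, 102 and 99.0 CPM, within the threshold in all 4 comparisons, where 11.3%, 32%, 29.7% and 12.8% of genes passed. The smaller classes with the most enzymes past the threshold, picked after their values were seen, were the subiculum and the unplaced inhibitory class. In the subiculum Mgll, Dagla and Daglb were higher than 5xFAD in astrocyte-KO (0.66, 0.34 and 0.39) and in neuron-KO (0.63, 0.47 and 0.78), 3 of 5 enzymes each, where 25.9% and 23% of genes were higher, and only Dagla in global-KO (0.35), where 10.4% were. Between 5xFAD and WT Daglb was lower there (-0.33), where 8.13% of genes were lower. The 5xFAD library, which all 3 comparisons share, also stood apart for Dagla in subiculum minus CA1 (-0.91 on log2(CPM + 5), against -0.54 to -0.46 in the other libraries). With marker scores no enzyme passed there in any of these 3 comparisons. In the unplaced inhibitory class, where 4 enzymes had enough UMIs, Abhd12 was higher in all 3 (0.75, 0.56 and 0.58) and Dagla in neuron-KO and global-KO (0.50 and 0.34), where 21.7%, 21.6% and 13.6% of genes were higher. Mgll was lower in neuron-KO (-0.37), where 9.7% of genes were. Between 5xFAD and WT Mgll was higher (0.33) and Abhd12 lower (-0.32) in this class, where 8.57% of genes were higher and 10.9% lower, the opposite signs to those against 5xFAD. With clusters made with the enzymes and pathway lists the neuron-KO value of Mgll turned to 0.21. The Abhd12 values against 5xFAD were then 0.24, 0.28 and 0.0095. Both differences between 5xFAD and WT turned sign with those clusters. No difference between these cell classes was tested, since each comparison is of 1 library with 1 library.

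Astrocytic Mgll was lower in 5xFAD than in WT by a log2 ratio of -0.51 (-0.91 to -0.12), where 22.8% of genes passed. Against 5xFAD it was at 0.48 (0.03 to 0.93) in the astrocyte-KO library, 0.22 (-0.25 to 0.69) in the neuron-KO library and 0.31 (-0.21 to 0.83) in the global-KO library, where 37.4%, 35.6% and 30.6% of genes passed. The astrocyte-KO value did not hold when nuclei were assigned by marker score (0.0079). With nuclei thinned to 1000 UMIs it was -0.42, on fewer UMIs and thus with a wider counting error. The counting intervals reach close to 0 or across it, and no loss of Mgll UMIs in astrocytes of the astrocyte-KO or global-KO library was detectable at this depth.

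**Figure D4:**
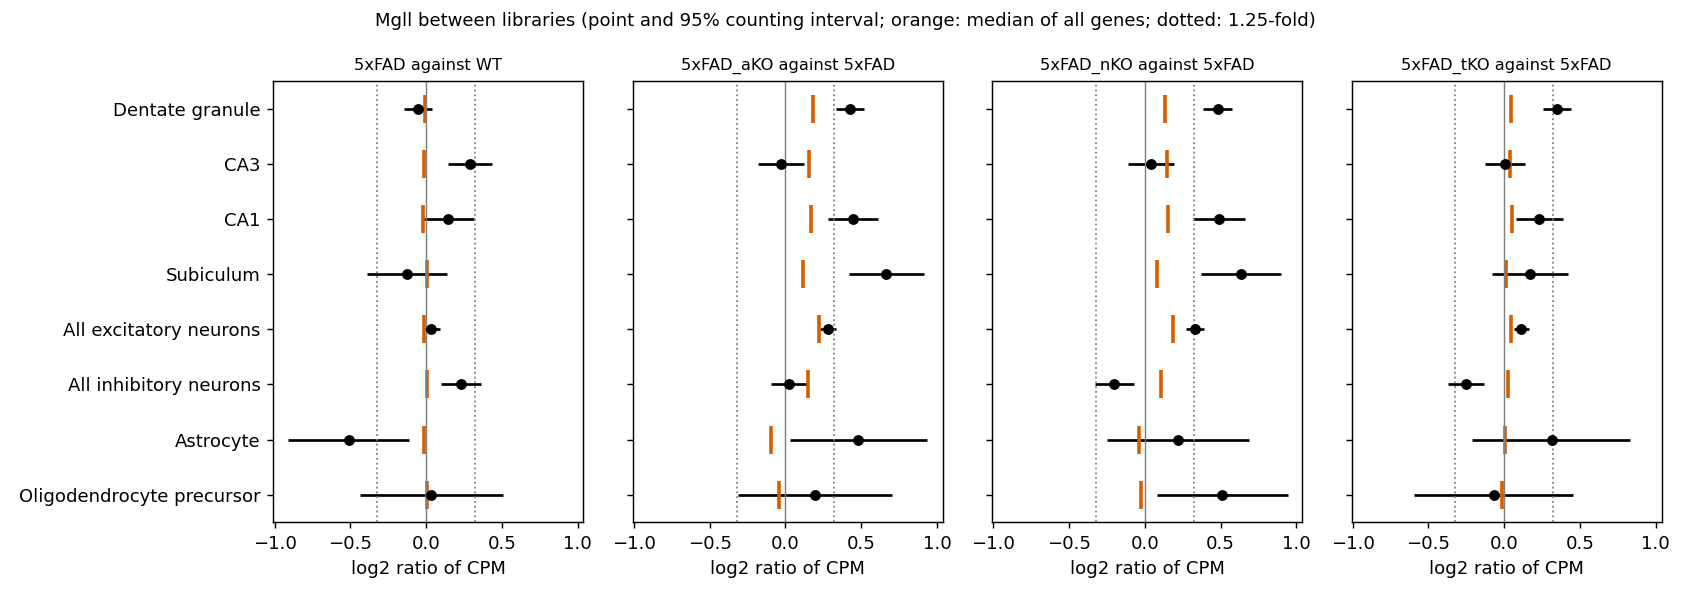
Log2 ratio of Mgll CPM between libraries (5xFAD against WT, and each knockout-labelled library against 5xFAD) for neuronal classes and glia. Bars are 95% conditional binomial intervals that cover counting error only. Orange marks show the median of all genes and dotted lines the fold threshold. The knockout-labelled libraries are not below the 5xFAD library in astrocytes or dentate granule neurons, and astrocyte intervals are wide.

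Dagla in dentate granule neurons was past the threshold in the neuron-KO library only, at 0.36 (0.28 to 0.44) against 5xFAD, and was at 0.08 in astrocyte-KO and 0.07 in global-KO. Without the unevenly held cluster the neuron-KO value was 0.29 (0.20 to 0.38), within the threshold. In the neuron-KO library Dagla stood at 164 CPM (152 to 177) in that cluster and 135 CPM (129 to 142) in the other dentate nuclei. Daglb was also higher in that cluster, at 59.4 against 35.6 CPM in astrocyte-KO, 52.7 against 29.9 in neuron-KO and 33.8 against 22.6 in global-KO. Abhd6 was lower there in each, most in neuron-KO (76.1 against 101 CPM). Abhd12 in neuron-KO was at 194 CPM (181 to 208) against 126 CPM (120 to 132), with overlapping intervals in astrocyte-KO and global-KO. Without that cluster dentate Abhd12 was at 118 CPM in 5xFAD. Daglb in all excitatory neurons was at 27.8, 25.6, 33.1, 30.4 and 23.8 CPM, which gave 0.37 (0.28 to 0.46) for astrocyte-KO and -0.11 (-0.20 to -0.02) for global-KO. Abhd6 stayed between 82.5 and 85.5 CPM in all excitatory neurons in the 5 libraries, with ratios from -0.01 to 0.04. Abhd12 there was at 103, 106, 109, 122 and 107 CPM, the highest in neuron-KO at 0.20 (0.16 to 0.25) against 5xFAD. These are plain CPM ratios, and against the medians of all genes (0.22 in astrocyte-KO and 0.19 in neuron-KO) Abhd6 lay below the typical gene there.

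The wider pathway was read from 4 lists of 51 genes in all. For genes that supply diacylglycerol (12, of which 10 had enough UMIs in all excitatory neurons), 1 was higher and none lower between 5xFAD and WT, and none higher with 2 lower, 1 higher with 3 lower, and none higher with 1 lower in the 3 knockout-labelled comparisons. Of all genes 3.02%, 37.9%, 34.9% and 10.8% were higher and 6.76%, 2.52%, 3.96% and 3.91% lower in the 4 comparisons. Of 13 genes that use diacylglycerol (kinases, protein kinase C and Lipe), none passed between 5xFAD and WT and 2 were higher in each of the others. Of 16 ABHD relatives none passed between 5xFAD and WT, 8 and 7 were higher in astrocyte-KO and neuron-KO, and none passed in global-KO, with medians of 0.34, 0.25 and 0.03 against medians over all genes of 0.22, 0.19 and 0.04. The list of receptors and carriers also holds enzymes, among them the cyclooxygenase genes Ptgs1 and Ptgs2. Of its 6 genes with enough UMIs, 1 (Ptgs1) was lower and none higher between 5xFAD and WT. In the knockout-labelled comparisons 4, 5 and 3 were higher and none lower, with medians of 0.35, 0.46 and 0.23. Ptgs2 was among the higher genes in all 3, and Ptgs1 in neuron-KO and global-KO. Several of these counts move with the scale, under alternatives chosen after seeing the data. The shares of all genes past the threshold were not computed for these alternatives, so their counts cannot be set against a background. With median-of-ratios size factors the ABHD relatives had 3 higher in astrocyte-KO and 2 higher with 1 lower in neuron-KO, the genes that supply diacylglycerol had 5 and 4 lower, and the receptors and carriers had 2, 2 and 3 higher. The genes that use diacylglycerol then had 1 higher with 3 lower in astrocyte-KO and 1 higher with 1 lower in each of the other 2, and their medians turned from 0.13 and 0.11 to -0.11 and -0.11 in astrocyte-KO and neuron-KO. Without the unevenly held dentate cluster the ABHD relatives had 9, 7 and 0 higher and the receptors and carriers 3, 4 and 2. The genes that use diacylglycerol then had 1, 1 and 2 higher and none lower. Those that supply it had 1, 2 and 1 lower and none higher.

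Genes past the threshold the same way in all 3 knockout-labelled comparisons were Cnr1, Ptgs2 and Plcb4. Cnr1 was at 52.4, 45.1, 57.0, 61.7 and 58.6 CPM in all excitatory neurons, higher than 5xFAD by log2 ratios of 0.34, 0.45 and 0.38, and 5xFAD was below WT by -0.22. Ptgs2, the inducible cyclooxygenase, was at 6.30, 6.07, 7.84, 8.45 and 7.84 CPM, with 0.37, 0.48 and 0.37. Plcb4, a phospholipase C, went the other way at 30.9, 39.9, 31.1, 29.0 and 29.3 CPM, with -0.36, -0.46 and -0.45, after 0.37 between 5xFAD and WT. All 3 comparisons share the 5xFAD library, and the 3 differences are therefore not independent. That library was the lowest of the 5 for Cnr1 and stood above the other 4 for Plcb4. These are plain CPM ratios, where the medians of all genes were 0.22, 0.19 and 0.04. With median-of-ratios size factors the 3 differences were 0.09, 0.23 and 0.33 for Cnr1, 0.12, 0.25 and 0.32 for Ptgs2, and -0.60, -0.68 and -0.49 for Plcb4. Without the unevenly held dentate cluster those of Ptgs2 were 0.11, 0.12 and 0.07, none past the threshold, while those of Cnr1 were 0.40, 0.55 and 0.47 and those of Plcb4 -0.34, -0.41 and -0.46. Cnr1 and Plcb4 also differ between excitatory classes (edgeR log2 fold changes of 3.76 and -1.57 in CA1 against dentate granule neurons). The shares of these classes differ between libraries. Upper-layer cortical neurons, for example, were 1.10%, 3.35%, 1.83%, 1.10% and 2.08% of nuclei. The part of this mixture in the differences was not tested.

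In the 10 class contrasts most lists had members in both directions. Genes that supply diacylglycerol had 7 of 12 higher and none lower in precursors against oligodendrocytes, where 24.8% of all genes were higher, and 5 higher and none lower in astrocytes against oligodendrocytes, where 18.4% were higher. Receptors and carriers (8 tested) had 5 higher and none lower in CA3 against dentate granule neurons, where 26.9% of all genes were higher, and 3 lower and none higher in subiculum against CA1, where 20.5% were lower. Every other pair of list and contrast had genes both higher and lower. Against dentate granule neurons, the 13 genes that use diacylglycerol had 9 higher and 3 lower in CA3, and 8 higher and 5 lower in CA1, where 27.3% of all genes were higher. They had 3 higher and 7 lower in Lhx6/Sst interneurons, where 31.1% of all genes were higher and 30.6% lower. In astrocytes they had 1 higher and 8 lower, where 29% of all genes were lower. Of 16 ABHD relatives, 9 were lower and 2 higher in microglia against oligodendrocytes, where 24.5% of all genes were lower, while Abhd6 and Abhd12 were higher there. The highest gene of all lists was Grm5, the metabotropic glutamate receptor upstream of Dagla, in dentate granule (2735 CPM), CA1 (3783 CPM), CA3 (2923 CPM), subicular (3769 CPM), Lhx6/Sst (3165 CPM) and Adarb2/Vip (1991 CPM) neurons. In Astrocyte nuclei and precursors it was Plcb1 (2551 and 1528 CPM), in oligodendrocytes Dgki (1164 CPM) and in microglia Gnaq (1058 CPM).

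The genes most like each enzyme were found by Pearson's r of log2(CPM + 5) over 79 library and class sums of 16 classes, among 12843 genes. The points share libraries and classes, so r is a description. For Dagla these were Iqsec2 (0.90), Prkag2 (0.88) and Prkce (0.88). For Abhd12 they were Fli1 (0.96), Gpr34 (0.95) and Rab39 (0.94), and for Daglb Hpgds (0.94), Nckap1l (0.93) and Adap2 (0.93), sets led by the microglial points. Mgll had looser partners in Chsy1 (0.76), Mid1 (0.76) and Txndc5 (0.73), and so had Abhd6 in Abr (0.72) and Med12l (0.67). Among the enzymes themselves Daglb and Abhd12 were closest (0.83), then Dagla and Abhd6 (0.67), while Mgll was at most 0.46 from any other.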

How the data were processed

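The authors deposited raw counts per barcode for each library (UMIs per gene and transposase cut sites per peak), made with Cell Ranger ARC 2.0.0 on mm10, per the submitters' processing notes. Those notes also name Seurat. Nuclei with under 500 genes or over 5% mitochondrial UMIs and likely doublets (Scrublet, 0.8% per 1000 nuclei) were removed. Nuclei were clustered with scanpy 1.11.5 on 2000 variable genes, leaving out the enzymes and the pathway lists, and classes were named from markers. Clusters with at least 40% of nuclei holding Xist and Y-linked UMIs were left unnamed, a limit set after seeing the data. Clusters called unevenly held have under 2% of a class in 1 library and over 10% in another. UMIs were summed per library and class (at least 20 nuclei) and tested with edgeR 4.0.16 (TMM, library block, 79 sums, 16339 genes, R 4.3.3), after a check on simulated counts. Libraries were compared by CPM with 95% exact Poisson and conditional binomial intervals. Sequencing reads are not independent beyond UMIs, so intervals cover counting error only. The number of animals per library is not given, though nuclei of both sexes mean more than 1. All 16 classes were fitted together, with 59 residual degrees of freedom. The p-values between classes thus rest on the spread pooled over all classes, not on that of each contrast over these 5 libraries.

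The members and lists were chosen with earlier results of these data known. Named were the 5 members, for each the 3 genes of highest r (at least 500 UMIs, leaving out sex-linked, mitochondrial and unnamed models), the list genes past the fold threshold the same way in all 3 knockout-labelled comparisons in excitatory neurons, and the highest list gene per class. One gene that this rule names for Abhd6 is not reported here. Promoters are from RefSeq (GRCm38.p6), where 3 of the 5 genes matched. Of the features with a GENCODE identifier, 87.2% held the annotated 5′ end at the stated coordinates.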

Additional observations from a re-analysis of the deposited data

Results flagged for a closer look

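Class differences on log2(CPM + 5) were examined within each library for 50 sets of 5 libraries, and in 5 sets 1 library stood apart from the others by a gap above 0.71 of the whole range (Dixon's limit for 5). Chance flags about 1 in 20 groups, and the groups share libraries and genes. For Mgll, CA3 minus dentate granule neurons was 0.53 in the 5xFAD library and 0.09 to 0.20 in the others. For Dagla, subiculum minus CA1 was -0.91 in the 5xFAD library against -0.54 to -0.46, and astrocytes minus dentate granule neurons was -1.67 in the astrocyte-KO library against -1.38 to -1.28. For Mgll, microglia minus oligodendrocytes was 3.93 in the WT library against 1.21 to 1.95. For Abhd12 the same difference was 2.75 in the WT library against 3.22 to 3.37. In the last 2 cases the WT microglia all belong to the cluster low in Apoe, and the part of that mixture in these values was not tested.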

How the results depend on the processing

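Of 50 enzyme tests between classes, 38 passed with edgeR, 36 with DESeq2, 39 with no filter on low counts and 36 with marker scores. With no doublet removal 27 of 40 passed, since no astrocyte cluster was named and both astrocyte contrasts dropped out. Those contrasts had 1 enzyme higher and 4 lower, and 3 higher and 1 lower, in the main fit. Without nuclei holding Xist together with Y-linked UMIs 40 passed. Without the dentate and microglial clusters held unevenly by the libraries 37 passed. Both of these last settings were chosen after seeing the data. Shares of all genes that passed are given for the main fit only, so the other counts have no background beside them. Leaving out each library gave 36 to 39, and the fit with no replicate block gave 36, losing Dagla in CA3 against dentate granule neurons and Abhd6 in CA3 against CA1. No paired analysis was possible between genotypes because each is 1 library. With marker scores Daglb in subiculum against CA1 reversed to 0.022, Dagla in Adarb2/Vip against Lhx6/Sst interneurons to -0.34 and Abhd12 in astrocytes against oligodendrocytes to 0.042. Without the nuclei holding both sexes' RNA that Dagla difference was -0.47. The causes were not tested.

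The count of 2 enzyme ratios past the threshold in all excitatory neurons became 1 with marker scores, 1 with no doublet removal, 1 without the nuclei holding both sexes' RNA, 0 without the unevenly held clusters and 0 with median-of-ratios size factors. Shares of all genes past the threshold were computed for the main setting only. The Mgll ratio in excitatory neurons for neuron-KO was 0.41 as a mean over nuclei, 0.27 in Xist nuclei, 0.48 in Y-linked nuclei and 0.11 with median-of-ratios size factors. In all nuclei Mgll for 5xFAD against WT (0.07) was -0.070 as a mean over nuclei, -0.086 thinned to 1000 UMIs, -0.0026 in Y-linked nuclei and 0.015 without the nuclei holding both. For global-KO (0.05) it was 0.15 as a mean over nuclei, 0.16 thinned and 0.12 in Y-linked nuclei. In astrocytes Mgll for astrocyte-KO was 0.0079 with marker scores and -0.42 thinned.

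Thinning also reversed Mgll in CA1 for astrocyte-KO (-0.019) and neuron-KO (-0.41), Mgll in precursors for neuron-KO (-0.14) and Dagla in inhibitory neurons for neuron-KO (-0.33, and -0.27 in Y-linked nuclei). These thinned values rest on far fewer UMIs than the ratios they replace. With all UMIs, Mgll was higher and Abhd12 lower in precursors for neuron-KO, where 12.5% of genes were higher and 12.9% lower. Dagla was higher in all inhibitory neurons for neuron-KO, where 25.9% of genes were. Abhd12 in precursors for neuron-KO turned to 0.066 with marker scores and 0.27 in Xist nuclei, and Daglb in CA1 for neuron-KO to -0.21 in Y-linked nuclei. Without the unevenly held cluster Daglb in dentate granule neurons was -0.40 for global-KO and 0.0052 for neuron-KO (-0.22 and 0.24 with it). In the subiculum thinning gave -1.80 for Daglb in astrocyte-KO and -0.30 for Dagla in global-KO (1 against 3 and 5 against 5 UMIs), Y-linked nuclei gave -0.048 for Dagla in both, and Xist nuclei gave 0.033 for Daglb in 5xFAD against WT. In the unplaced inhibitory class thinning gave -1.55 for Dagla in neuron-KO. With clusters made with the enzymes, Dagla there was -0.098 for global-KO and Mgll 0.21 for neuron-KO, and 5xFAD against WT was -0.41 for Mgll and 0.12 for Abhd12. Scaled to promoter peaks only, dentate granule minus CA1 was 0.81 at the Mgll region 12.5 kb from the start and 0.46 at the Dagla intron region. Microglia minus dentate granule neurons was then 3.50 and 4.79 at the Daglb regions and 3.08 and 1.79 at the Abhd12 regions. Of the region differences rescaled in this way, 6 moved by at least their SD over libraries and 1 did not. Of the library comparisons, thinning to 1000 UMIs moved 98 beyond the counting interval of all UMIs, reversed 8 and left 70 the same. Thinned values rest on far fewer UMIs, and their own counting error was not part of this count. The count therefore cannot tell a dependence on depth from counting error. Median-of-ratios size factors moved 51 and left 125 the same. Few UMIs also limit the astrocyte, oligodendrocyte and microglia values, several of which rest on under 100 UMIs.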
